A study of Mus musculus with 12 samples.

Results

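The genes described here encode the core of the interleukin-1 (IL-1) family in mouse skin wounds: the cytokines Il1a, Il1b, Il33 and Il18, the IL-1 receptor antagonist Il1rn, the receptors Il1r1, Il1r2, Il1rap and Il1rl1, and the IL-18 binding protein Il18bp. They were picked by symbol as the rows with these 10 names among the 55487 genes of every deposited table. The rule uses names and no measured value, although these names were chosen with earlier results of these data known. Levels are given as TPM, the abundance of a gene's transcripts per length, scaled to the same total in each library. In each of the 4 groups the mean of all 10 was above the filter of 0.3 TPM, and all 10 were tested in each comparison.

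IL-1α and IL-1β signal through the receptor encoded by Il1r1, which needs the accessory chain encoded by Il1rap. The protein of Il1rn occupies that receptor without activating it, and the receptor of Il1r2 is a decoy that binds IL-1 without a signal. IL-33 acts through the ST2 receptor, the product of Il1rl1, with the same accessory chain, while IL-18 is made as a precursor that caspase-1 can cleave and is neutralized by the protein of Il18bp. In skin, keratinocytes hold stores of IL-1α, IL-18 and IL-33, while IL-1β is made mainly by myeloid cells after injury. Because the activity of these proteins depends on cleavage and release, RNA levels describe transcripts only.

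RNA came from full-thickness punch wounds on the back of male C57BL/6JNarl mice that were 6 weeks old, with no genetic modification named. The sham group received Pluronic F127 gel alone, once a day, and CAP-treated wounds received 10 µM capsaicin (CAP), the agonist of the heat receptor TRPV1, in the same gel, so every group was wounded and gel-treated and no unwounded skin was among them. Wounds were sampled at day 3 and at day 6, with 3 libraries for each treatment and day, 12 in all. Mice carried a pair of wounds each, and the sources used here do not say which libraries came from the same mouse. The p values therefore measure only the spread between libraries, which may be technical in part. The excised tissue was whole wound with its margin, and in such bulk RNA fewer cells of a type and less RNA per cell cannot be told apart.

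TPM do not carry the number of reads, and how deeply the libraries were sequenced is not known here. Between 18533 and 19325 genes reached 0.3 TPM in a library. Replicates of a group correlated at Pearson r of 0.956 to 0.975 over genes, and libraries of different groups at 0.934 to 0.975, as a description. The defining markers of skin wound tissue were present: all 12 keratinocyte, all 12 monocyte and macrophage, all 8 fibroblast, all 6 endothelial and all 8 mast cell markers reached a mean of 0.3 TPM over all libraries, as did 9 of 12 neutrophil markers. The means of Elane and Mpo, granule proteins of immature neutrophils, were under that level in all 4 groups. At the same time 6 of 6 skeletal muscle markers were detected, with summed levels of 1901 to 5767 TPM. A pair of libraries stood apart for the genes of interest here. In sham day 3 replicate 1 the neutrophil markers summed to 6208 TPM, the highest of all 12 libraries, and in CAP day 6 replicate 2 they summed to 354 TPM, the lowest, while the keratinocyte markers of that library summed to 107320 TPM, the highest. Several results that rest on either library are given with and without it. Medians of gene lists, differences of single pathway genes and the likeness of genes are given with all libraries only.

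All 10 genes were found in the mouse genome build GRCm38 at the coordinates of the tables. Il1a (chr2:129299610-129309972, minus strand) and Il1b (chr2:129364570-129371139, minus strand) are neighbours, and Il1rn lies elsewhere on the same chromosome (chr2:24336853-24351494, plus strand). A receptor cluster on chromosome 1 holds Il1r2 (chr1:40074079-40125231), Il1r1 (chr1:40225080-40317257) and Il1rl1 (chr1:40429570-40465415), all on the plus strand. Il1rap (chr16:26581704-26730117), Il33 (chr19:29925114-29960718) and Il18 (chr9:50554827-50581840) are also on the plus strand, and Il18bp (chr7:102014885-102018690) is on the minus strand. Il18bp overlaps Numa1 on the other strand, which was listed at 63.2 to 79.3 TPM, several times the level of Il18bp itself. Il18 overlaps Bco2 on the other strand, at 1.53 to 4.37 TPM. The sources used here do not say whether strand was used in the estimate, so reads from overlapping genes cannot be told apart, and the values of Il18bp are uncertain for that reason.

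The sequences before the start of 4 of the cytokine genes and of the IL-33 receptor gene are shown because the levels of these genes moved in different directions over the same wounds. Each line gives the 150 bases before a RefSeq start site on GRCm38.p6, read 5′ to 3′ along the gene's strand, with the stretch's coordinates after the name. Capitals mark a match to the TATA box (TATAAA), the AP-1 site (TGANTCA) or the GATA site (AGATAA, or TTATCT where the match is on the other strand).
Il1a, chr2:129309973-129310122: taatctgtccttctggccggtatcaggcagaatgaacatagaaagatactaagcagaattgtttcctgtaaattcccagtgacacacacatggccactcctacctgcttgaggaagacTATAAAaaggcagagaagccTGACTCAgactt
Il1b, chr2:129371140-129371289: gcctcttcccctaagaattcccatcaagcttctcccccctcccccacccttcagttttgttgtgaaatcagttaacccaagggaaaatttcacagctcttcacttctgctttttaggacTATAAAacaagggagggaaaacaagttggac
Il33, the second of its start sites, chr19:29945640-29945789: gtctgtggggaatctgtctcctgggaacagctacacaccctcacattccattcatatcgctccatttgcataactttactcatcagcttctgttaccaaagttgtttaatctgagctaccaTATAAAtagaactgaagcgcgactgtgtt
Il18, chr9:50554550-50554699: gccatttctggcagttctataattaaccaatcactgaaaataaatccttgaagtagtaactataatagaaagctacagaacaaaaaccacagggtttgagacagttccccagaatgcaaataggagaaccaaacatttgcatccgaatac
Il1rl1, the second of its start sites, chr1:40439479-40439628: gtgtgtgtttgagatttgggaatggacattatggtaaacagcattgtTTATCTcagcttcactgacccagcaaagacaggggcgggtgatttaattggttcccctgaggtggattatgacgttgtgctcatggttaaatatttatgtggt

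The same letters were searched on both strands of the 250 bases before all 15 RefSeq start sites of the 10 genes and before 32851 start sites of all genes, and no match in the printed stretches overlaps another. TATAAA was present before Il1a, Il1b and Il18 and before both start sites of Il33, and in 12.4% of all stretches. Its first letter lay 32 bases before the start of Il1a, 31 before that of Il1b and 29 before the second start of Il33, but 175 before that of Il18, outside the printed stretch. TGANTCA was present before Il1a and before the first start of Il1rn, and in 6.75% of all stretches. AGATAA was present before both starts of Il1rl1, and in 9.99% of all. A form of the NF-κB site, GGGANNNNCC, was found before Il1rn and Il1rap, and in 17.6% of all. The interferon-response form GAAANNGAAA was in 2.98% of all stretches and in 0 of the 15. Start sites of a gene can share bases, and these matches describe letters only.

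**Figure D1:**
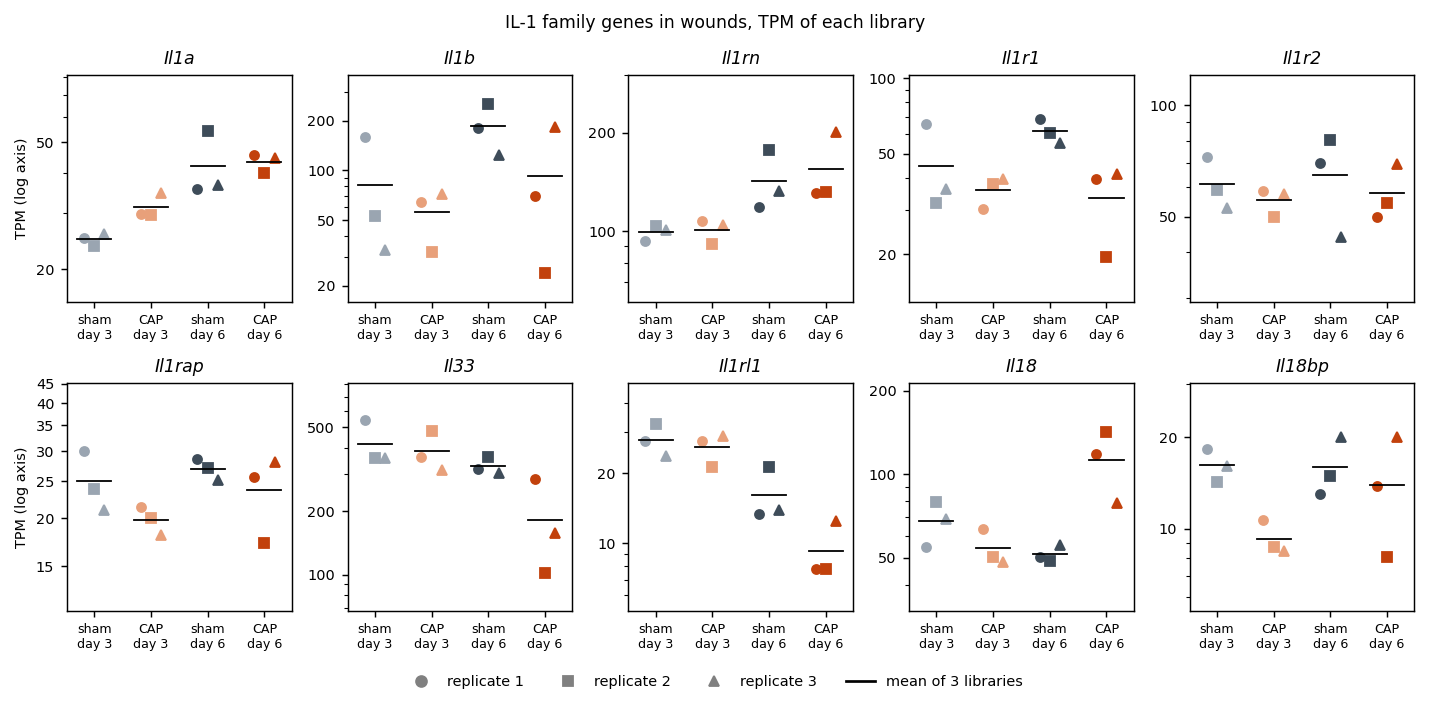
TPM (log axis) of the 10 IL-1 family genes in each of the 12 libraries, by treatment and day, with symbols for replicates 1 to 3 and a bar at the mean of 3 libraries. Il18 lies higher in all 3 CAP day 6 libraries than in all 3 sham day 6 libraries, Il1rl1 is lowest in CAP day 6, and Il1b spans from 24.0 to 253.6 TPM.

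At day 6, wounds under CAP had more Il18 RNA and less Il1r1, Il33 and Il1rl1 RNA than sham wounds, with groups that did not overlap for any of the 4 genes. Only Il18 was past the threshold, which asks for an unadjusted p under 0.05 in limma and a difference of at least 2-fold. In all, 1.46% of the 18323 genes tested were past it as higher and 2.34% as lower, 19.2% had an unadjusted p under 0.05, and 26% had groups that did not overlap, so the 4 genes of 10 stand against a broad background of differences at that day. No gene of the 10 had an adjusted p under 0.05 by the Benjamini-Hochberg method, nor had any of all genes (0%). The median difference over all genes was −0.12 on the log2 scale, with 268 genes past the threshold as higher and 429 as lower. With median-ratio scaling of the libraries the median was −0.01 and these counts were 389 and 300, while the sign of each of the 10 genes was kept.

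Il18, the IL-18 precursor gene, was measured at 50.4, 48.9 and 55.8 TPM in the sham libraries of day 6 and at 118.4, 141.9 and 78.7 TPM under CAP. Each CAP library was above each sham library, and the lowest of them, replicate 3, was still above the highest sham value. Il18 rose by 1.09 on the log2(TPM + 0.1) scale (SE 0.21, 95% interval 0.59 to 1.59, adjusted p = 0.205 in limma), a 2.12-fold difference. The unadjusted p was 0.00132 in limma and 0.1 in the exact permutation test of the 6 values, the smallest that 3 against 3 libraries allow. Without CAP day 6 replicate 2 the difference was 0.90, under the 2-fold limit.

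Keratinocyte markers summed to more under CAP as well. The 12 keratinocyte markers summed to 34115, 42349 and 35490 TPM in sham day 6 replicates 1 to 3 and to 81273, 107320 and 52012 TPM in the CAP replicates. Under CAP that is the order of Il18, but in sham wounds replicate 2 had the highest sum and the lowest Il18. Not all of the 12 markers followed the order of the sums. Of that list 4 of 12 rose past the threshold, namely Krt1, Krt10, Lor and Ivl, which mark the differentiating layers of the epidermis, and 0 of 12 fell past it. In all, 9 of the 12 were above 0 and 3 were under 0. Their part in the difference of Il18 was not tested. The sum for monocytes and macrophages was 8671 to 12494 TPM in sham and 5095 to 11149 TPM in CAP-treated wounds, and 2 of these 12 markers, Itgam and Ccr2, fell.

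Il33, the gene of an alarmin cytokine stored in the nucleus of epithelial and stromal cells, was the most abundant of the 10 in 10 of the 12 libraries. It stood at 316.7, 360.4 and 303.4 TPM in sham day 6 wounds and at 285.0, 101.5 and 157.6 TPM under CAP. All 3 CAP values were lower than all 3 sham values, with replicate 1 close to them and replicate 2 far below. The difference was −0.97 (SE 0.34, 95% interval −1.78 to −0.17, limma p = 0.0246, adjusted p = 0.228, exact permutation p = 0.1), just short of 2-fold. Without CAP day 6 replicate 1 it was −1.36, past the threshold, and without replicate 2 it was −0.62.

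Its receptor gene Il1rl1 was at 13.4, 21.2 and 13.9 TPM in sham and at 7.74, 7.80 and 12.4 TPM in CAP-treated wounds of day 6. The groups were close but did not overlap, since the highest CAP value lay under the lowest sham value. The difference was −0.79 (SE 0.26, limma p = 0.0178, adjusted p = 0.218, exact permutation p = 0.1), and −1.01 without CAP day 6 replicate 3, past the threshold. The 8 mast cell markers, from a cell type known to carry ST2, summed to 100.8 to 203.9 TPM in sham and to 131.8 to 152.8 TPM under CAP, and 0 of 8 were past the threshold in either direction. The part of mast cells or of other cells in the difference of Il1rl1 was not tested.

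Il1r1, the signalling receptor of IL-1, was at 68.9, 60.6 and 55.3 TPM in sham day 6 libraries and at 39.6, 19.4 and 41.5 TPM in CAP day 6 libraries. Again no value of one group reached the other, and replicate 2 was the lowest of all 12 libraries. The difference was −0.95 (SE 0.29, 95% interval −1.63 to −0.27, limma p = 0.0132, adjusted p = 0.212, exact permutation p = 0.1), short of 2-fold. It passed the threshold when sham day 6 replicate 3 (−1.03), CAP day 6 replicate 1 (−1.11) or CAP day 6 replicate 3 (−1.14) was left out, and dropping CAP day 6 replicate 2 gave −0.60. Endothelial cells and fibroblasts carry this receptor. The 6 endothelial markers summed to 277.2 to 374.2 TPM in sham and to 74.8 to 233.4 TPM under CAP, with 3 of 6 (Pecam1, Cdh5 and Emcn) past the threshold as lower. The 8 fibroblast markers summed to 19921 to 26574 and 15996 to 21822 TPM, which overlap, with 0 of 8 past the threshold. Their part in the differences of Il1r1 and Il33 was not tested.

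Il1b, the inflammatory cytokine of activated myeloid cells, had the widest spread. It was at 181.2, 253.6 and 124.6 TPM in sham and at 69.8, 24.0 and 183.4 TPM in CAP-treated wounds of day 6. Replicate 3 of the CAP group lay within the sham values and the other two lay under them, so the groups overlapped. The difference of −1.41 had an SE of 0.68 and a 95% interval from −3.02 to 0.21 (limma p = 0.0787, adjusted p = 0.302, exact permutation p = 0.3), and did not pass the threshold. It was −2.13 and past the threshold without CAP day 6 replicate 3, and −0.66 without replicate 2. The neutrophil markers summed to 2753, 354 and 1270 TPM in CAP replicates 1 to 3, a sum made up mostly of S100a8 and S100a9. Csf3r, the receptor of the granulocyte growth factor, was at 37.1, 26.0 and 142.4 TPM in the same replicates, and Cxcr2, a chemokine receptor of neutrophils, at 26.2, 17.7 and 37.3 TPM. Both were highest in replicate 3, as was Il1b, and Retnlg and Mmp9 were highest there too. The part of neutrophil RNA in the values of Il1b was not tested.

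The remaining 5 genes had overlapping groups at day 6. Il1a was at a mean of 42.2 ± 10.5 TPM (SD, n = 3) in sham and 43.3 ± 3.02 TPM (SD, n = 3) in CAP-treated wounds, with an interval of the difference from −0.35 to 0.48. Il1rn was at 143.0 ± 30.7 and 154.6 ± 40.3 TPM (interval −0.41 to 0.62), and Il1r2 at 64.9 ± 18.9 and 57.9 ± 10.2 TPM (interval −0.70 to 0.44). Il1rap had 26.9 ± 1.71 and 23.7 ± 5.70 TPM (interval −0.66 to 0.24), and Il18bp had 16.0 ± 3.63 and 14.0 ± 5.94 TPM (interval −1.05 to 0.52). Differences of up to 2-fold lower lie inside the interval of Il18bp, while those of Il1a, Il1rn, Il1r2 and Il1rap exclude a change of 2-fold in either direction.

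**Figure D2:**
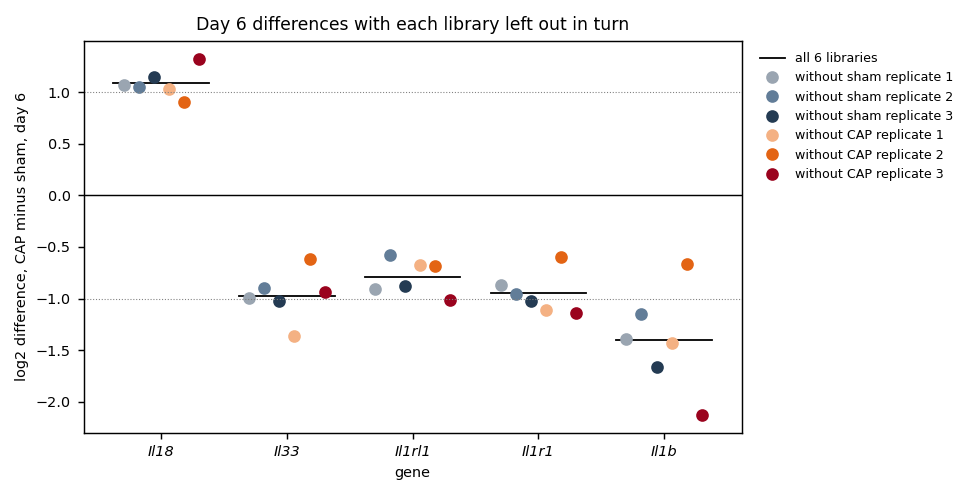
Log2 difference between CAP-treated and sham wounds of day 6 for 5 genes with all 6 libraries (black bar) and with each library left out in turn (points). Dotted lines mark a 2-fold difference: Il18 stays between 0.90 and 1.33, Il33 between −1.36 and −0.62, and Il1b between −2.13 and −0.66.

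At day 3, 0 of the 10 genes were past the threshold between CAP-treated and sham wounds. The background at that day was 0.426% of 18330 genes higher and 1.16% lower, with 6.6% at an unadjusted p under 0.05, 11.6% with groups that did not overlap and 0.0164% with an adjusted p under 0.05. By limma, 2 of the 10 had an unadjusted p under 0.05, and none an adjusted one. Il18bp was at 18.3, 14.2 and 16.1 TPM in sham wounds and at 10.7, 8.73 and 8.47 TPM under CAP. All 3 CAP values were lower, and the difference was −0.80 (SE 0.15, limma p = 9.81e-04, adjusted p = 0.500, exact permutation p = 0.1), which is 1.74-fold. Numa1, the gene on its other strand, had means of 72.5 and 72.3 TPM in the same groups.

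Il1a showed the other low p value of day 3. Sham libraries were at 25.0, 23.7 and 25.8 TPM and CAP libraries at 29.7, 29.6 and 34.6 TPM, without overlap. The difference of 0.33 (SE 0.10, limma p = 0.0133, adjusted p = 0.626, exact permutation p = 0.1) was 1.25-fold. For the other 8 genes the groups overlapped, with differences from −0.32 for Il1rap to 0.02 for Il1rn. Il1b was at 159.9, 52.6 and 33.1 TPM in sham and at 64.3, 32.0 and 72.1 TPM under CAP. Its difference of −0.30 turned to 0.34 without sham day 3 replicate 1, the library with the most neutrophil marker RNA. Il33 and Il1r1 also turned in direction without that library, from −0.11 to 0.085 and from −0.25 to 0.071. Erythroid markers differed at that day, with sums of 279.8 to 416.4 TPM in sham and 1282 to 1535 TPM under CAP, and 3 of the 3 tested rose. The monocyte markers Ccr2 and Ly6c2, 2 of 12 on their list, and the T cell marker Cd2, 1 of 8, fell past the threshold. Of the 12 monocyte and macrophage markers 5 were above 0 and 7 under 0, with a median of −0.15. Of the 8 T and NK cell markers 1 was above 0 and 7 were under 0. All 8 fibroblast markers were under 0, with a median of −0.51 and 5 at an unadjusted p under 0.05 in limma, though 0 were past the threshold. Their part in the day 3 values was not tested.

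The difference between the CAP effects of the days was then tested with an interaction term over all 12 libraries. Of 20267 genes, 2.18% were past the threshold as higher and 2.73% as lower, 11.3% had an unadjusted p under 0.05 and 0% an adjusted one. Among the 10 genes only Il18 passed. Its CAP difference was −0.32 at day 3 and 1.09 at day 6, so that the effects differed by 1.41 (SE 0.29, 95% interval 0.77 to 2.05, adjusted p = 0.428 in limma). With both libraries that stood apart left out, the value was 1.37. For Il1rl1 the effects differed by −0.69 (SE 0.32, 95% interval −1.40 to 0.03), for Il33 by −0.86 (SE 0.45, 95% interval −1.85 to 0.12) and for Il1r1 by −0.71 (SE 0.44, 95% interval −1.66 to 0.25). None of these passed with all libraries, so a CAP difference at day 6 that is absent at day 3 was not shown for these 3 genes. Without sham day 3 replicate 1, Il33 (−1.06) and Il1r1 (−1.02) passed as well.

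**Figure D3:**
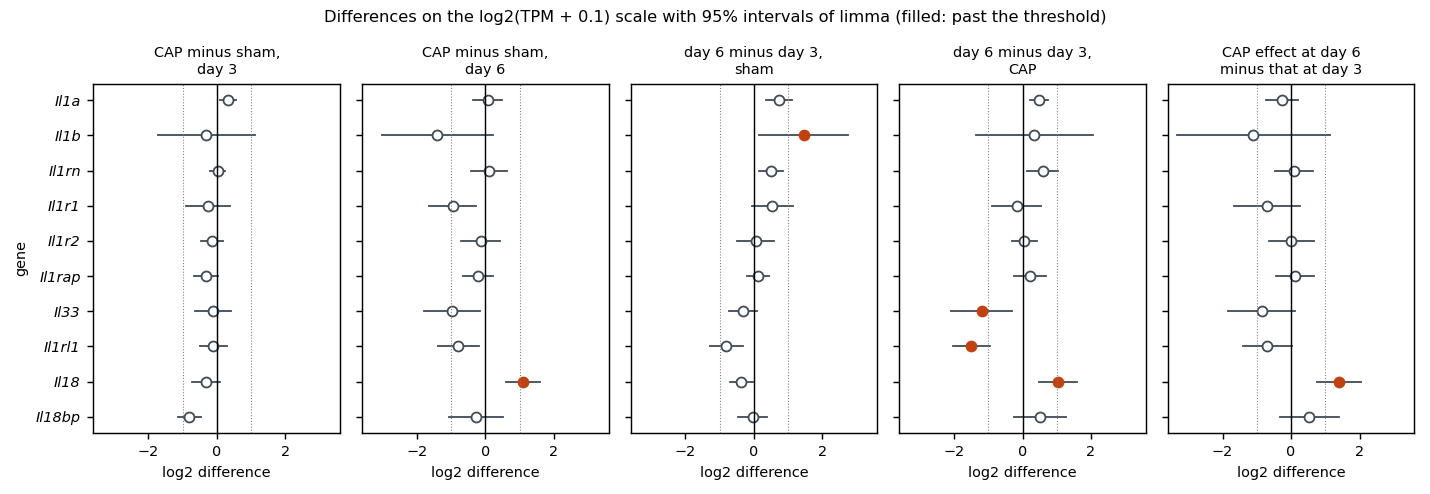
Log2 differences of the 10 genes (points) with 95% intervals (lines) in the 5 comparisons, with dotted lines at 2-fold and filled points for genes past the threshold. Il18 is filled in 3 panels, Il1rl1 and Il33 in the comparison of days under CAP, and Il1b in that of sham wounds.

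Between day 3 and day 6, Il1b rose in sham wounds, and under CAP Il18 rose while Il33 and Il1rl1 fell. These comparisons share their libraries with those of CAP against sham, so they are not independent of them. In sham wounds 2.13% of 18368 genes were past the threshold as higher at day 6 and 1.61% as lower, 16% had an unadjusted p under 0.05, 21.4% did not overlap and 2.29% had an adjusted p under 0.05. Under CAP 1.27% of 18202 genes were higher and 1.52% lower, with 11.6% at an unadjusted p under 0.05, 17.7% without overlap and 0.00549% at an adjusted p under 0.05. No gene of the 10 reached an adjusted p under 0.05 in either treatment. By unadjusted p, 5 of the 10 were under 0.05 in sham wounds and 5 of the 10 under CAP.

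Il1b rose in sham wounds from 81.9 ± 68.3 TPM (SD, n = 3) at day 3 to 186.5 ± 64.6 TPM (SD, n = 3) at day 6, by 1.45 (SE 0.55, adjusted p = 0.255 in limma). The groups overlapped through sham day 3 replicate 1, at 159.9 TPM, and the unadjusted p was 0.0328 in limma and 0.2 in the exact permutation test. The gene fell short of the threshold without any one of 4 of the 6 libraries, with values down to 0.96 when sham day 3 replicate 3 was left out. Without sham day 3 replicate 2 the value was 1.30, without sham day 6 replicate 1 it was 1.44, and without sham day 6 replicate 2 it was 1.20. It was 2.099 without sham day 3 replicate 1 and 1.71 without sham day 6 replicate 3, past the threshold in both. With all libraries it also fell short in a joint fit of the 4 groups and when the filter on low genes was dropped. Under CAP the difference between days was 0.35 (SE 0.72, exact permutation p = 0.9), with an interval from −1.36 to 2.06 that holds the sham value.

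Il1a and its antagonist gene Il1rn were higher at day 6 under both treatments, without overlap and by less than 2-fold. Il1a differed by 0.73 in sham wounds (limma p = 0.00278) and by 0.47 under CAP (limma p = 0.00420), with an exact permutation p of 0.1 in each. Il1rn went from 93.3, 104.1 and 101.3 to 118.5, 177.5 and 133.0 TPM in sham wounds, and from 107.7, 91.3 and 104.5 to 130.9, 131.7 and 201.2 TPM under CAP. These are differences of 0.50 (limma p = 0.0115) and 0.59 (limma p = 0.0174), again with an exact permutation p of 0.1.

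Il1rl1 fell between the days under CAP. Its values were 27.6, 21.3 and 28.9 TPM at day 3 and 7.74, 7.80 and 12.4 TPM at day 6, and it fell by 1.49 on the log2 scale (SE 0.23, limma p = 3.55e-04, adjusted p = 0.236, exact permutation p = 0.1) or 2.81-fold. In sham wounds the difference was −0.80 (SE 0.20, limma p = 0.00501, exact permutation p = 0.1), from 27.5, 32.4 and 23.6 TPM to 13.4, 21.2 and 13.9 TPM, without overlap and under 2-fold, and −1.01 without sham day 6 replicate 2. The ordering of group means was therefore sham day 3, CAP day 3, sham day 6 and CAP day 6 from high to low, and only the pair of day 3 groups overlapped. The sum of mast cell markers over the same libraries was 75.6 to 124.7 TPM at day 3 and 100.8 to 203.9 TPM at day 6 over both treatments. All 8 of these markers were above 0 from day 3 to day 6 under either treatment, with medians of 0.79 in sham wounds and 0.66 under CAP. In each treatment 5 of the 8 had an unadjusted p under 0.05 in limma, beside 16% of all genes in sham wounds and 11.6% under CAP. The part of mast cells or of other cells in the differences of Il1rl1 between the days was not tested.

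Il33 and Il18 moved in opposite directions under CAP. Il33 fell by 1.20 (SE 0.37, limma p = 0.0153, adjusted p = 0.351, exact permutation p = 0.1), from 363.7, 478.6 and 314.9 TPM to 285.0, 101.5 and 157.6 TPM, without overlap. Il18 rose by 1.03 (SE 0.23, limma p = 0.00319, adjusted p = 0.295, exact permutation p = 0.1), from 63.6, 50.4 and 48.5 TPM to 118.4, 141.9 and 78.7 TPM, also without overlap. In sham wounds the differences were −0.33 for Il33 (exact permutation p = 0.3) and −0.38 for Il18 (exact permutation p = 0.2), and both sets of values overlapped. Without CAP day 6 replicate 2 the differences under CAP were −0.84 and 0.84, both under 2-fold. Leaving out CAP day 3 replicate 2 gave −1.03 for Il33 (no longer at p under 0.05) and 0.98 for Il18. For Il18, 0.95 without CAP day 3 replicate 3 and 0.97 without CAP day 6 replicate 1 were also under the limit. Over the same days 4 of 12 keratinocyte markers (Lor, Krt10, Krt1 and Ivl) rose under CAP, while Krt17 and Krt6a, keratins of activated epidermis, fell, and the neutrophil markers Retnlg and S100a8 fell. Their part in these differences was not tested.

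Ratios of TPM within a library were described without a test. They set cytokines against their inhibitors, the receptor gene Il1r1 against that of the decoy, and Il33 against the gene of its receptor. Il18 exceeded Il18bp 8.54-, 17.5- and 3.94-fold in CAP day 6 replicates 1 to 3, and 3.87-, 3.28- and 2.78-fold in the sham replicates. The lowest CAP ratio was just above the highest sham ratio. At day 3 the same ratio was 5.72 to 5.96 under CAP and 2.98 to 5.61 in sham wounds, again without overlap, and of the pair only Il18bp had groups without overlap at that day. The ratio of Il1b to Il1rn was 0.937 to 1.53 in sham day 6 wounds and 0.182 to 0.912 under CAP, without overlap, and 0.326 to 1.71 and 0.350 to 0.690 at day 3. That of Il1a to Il1rn was higher under CAP at day 3, with 0.276 to 0.331 against 0.228 to 0.268 in sham, without overlap. At day 6 it overlapped, with 0.276 to 0.306 in sham and 0.222 to 0.347 under CAP. How often ratios of other genes lack overlap was not computed. Il1r1 against its decoy Il1r2 overlapped at both days, with 0.750 to 1.26 in sham and 0.357 to 0.792 in CAP-treated wounds of day 6. So did Il33 against Il1rl1, with 17.0 to 23.7 and 12.7 to 36.8 at day 6.

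**Figure D4:**
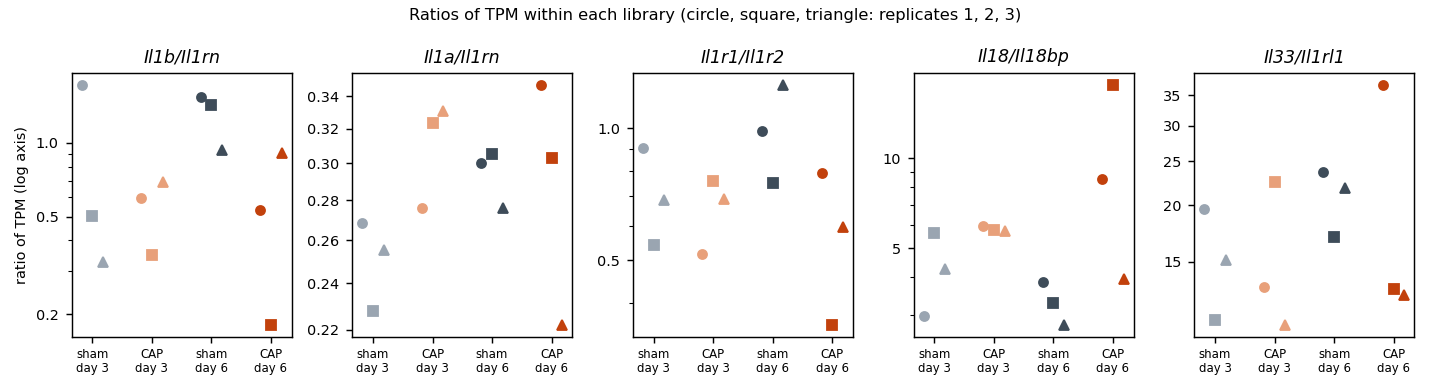
Ratios of TPM within each library (log axis) for 5 pairs of genes, by treatment and day, with symbols for replicates 1 to 3. Il18 over Il18bp is 3.94 to 17.5 in CAP day 6 wounds and 2.78 to 3.87 in sham day 6 wounds, and Il1b over Il1rn is at most 0.912 in CAP day 6 wounds.

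The rest of the IL-1 pathway was read from 4 lists with 65 genes in all: 11 other ligands and receptors of the family, 12 genes of the inflammasome and of processing, 22 of signal transduction and 20 textbook targets of IL-1. At day 3, 0 of the 63 genes tested were past the threshold between CAP-treated and sham wounds. An unadjusted p under 0.05 in limma was found for 3 of the 63, beside 6.6% of all genes tested. The median difference of the 63 was −0.06, close to the −0.05 of all genes. At day 6, 2 of 62 rose past it and 13 fell, beside 1.46% of all 18323 genes tested as higher and 2.34% as lower. All 13 that fell were target genes, of which 19 were tested. The median difference of the targets was −1.47, against −0.12 for all genes, and 19 of 19 were under 0. None of them had an adjusted p under 0.05 in limma. Targets of IL-1 are also induced by other inflammatory signals, such as those of tumour necrosis factor and of bacterial products.

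Of the 8 pathway genes with the smallest p at day 6, 7 were such targets: chemokines, an adhesion molecule and a growth factor. Ccl20, a chemokine of activated epithelium, had a mean of 15.8 ± 4.23 TPM (SD, n = 3) in sham and 4.38 ± 1.94 TPM (SD, n = 3) in CAP-treated wounds. It fell by 1.89 (SE 0.34, adjusted p = 0.205 in limma). Ccl2 and Ccl7, attractants of monocytes, had differences of −1.52 and −1.21. Cxcl5 and Cxcl1, attractants of neutrophils, had differences of −1.89 and −1.65. Ccl2 was at 47.3, 47.7 and 29.7 TPM in sham and 21.3, 11.8 and 11.2 TPM under CAP, and Cxcl5 at 36.9, 56.5 and 17.2 against 10.2, 7.95 and 8.52 TPM, both without overlap. Icam1, a leukocyte adhesion molecule, fell by 1.08, from 67.1, 64.2 and 58.5 to 32.4, 21.3 and 38.4 TPM, and Csf3, the granulocyte growth factor, fell by 1.93. Il6, another target, fell by 1.66 (SE 0.49, adjusted p = 0.212 in limma), from 5.95, 13.5 and 6.63 to 4.27, 1.26 and 2.82 TPM.

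The other of these 8 genes was Il1f5, also named Il36rn, the gene of the IL-36 receptor antagonist. It rose by 1.12 (SE 0.23, adjusted p = 0.205 in limma), from 176.2, 237.3 and 189.3 TPM in sham to 509.97, 521.5 and 308.4 TPM in CAP-treated wounds. Il1f8 (Il36b), an agonist of the same receptor, rose by 1.10 (SE 0.33, adjusted p = 0.212 in limma). It was at 27.0, 55.8 and 35.2 TPM in sham and at 94.6, 102.8 and 53.5 TPM under CAP, with CAP replicate 3 inside the sham values. The agonist genes Il1f6 (Il36a) and Il1f9 (Il36g) were not past the threshold in that comparison, at 42.1 ± 15.2 against 76.2 ± 16.1 TPM (SD, n = 3) and at 105.1 to 138.4 against 115.5 to 204.7 TPM. In each of Il1f5, Il1f8 and Il18 the CAP replicates stood in the order 2, 1, 3 from high to low, the order of the keratinocyte marker sums. Among the single markers Krt1, Krt10, Krt5, Sfn, Ivl and Lor had that order. In Il1f6 and Il1f9 the order was 1, 2, 3, as in the markers Krt14, Krt6a, Krt16, Krt17, Trp63 and Dsg3. These IL-36 genes are known products of the epidermis, and the part of keratinocyte RNA in their values was not tested.

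Inflammasome genes did not pass the threshold at day 6 (0 of 12, median −0.56), nor did those of signal transduction (0 of 22, median −0.20). An unadjusted p under 0.05 in limma was reached by 3 of the 12 and 4 of the 22, beside 19.2% of all genes tested. Casp1, the gene of the enzyme that cleaves the IL-1β and IL-18 precursors, was at 26.2, 28.1 and 35.1 TPM in sham and 23.1, 18.1 and 28.6 TPM in CAP-treated wounds. Nlrp3, an inflammasome sensor, was at 18.1, 19.8 and 10.8 TPM and at 6.84, 2.48 and 20.1 TPM, with the same pattern over libraries as Il1b. Without CAP day 6 replicate 2, 8 of the pathway genes were past the threshold in place of 15, and without CAP day 6 replicate 3 there were 23. Over all genes 268 higher and 429 lower were past it with all libraries. Without CAP day 6 replicate 2 these counts were 140 and 171, and without CAP day 6 replicate 3 they were 458 and 1025. Marker lists of neutrophils, of monocytes and macrophages and of vessels lay lower in the same comparison. T and NK cell markers did not, with 6 of 8 above 0, 2 under 0 and a median of 0.27. All 8 neutrophil markers tested were under 0, with a median of −1.17 and 1 (Mmp9) past the threshold, and so were all 12 of monocytes and macrophages, with a median of −0.57 and 2 past it. All 6 endothelial markers were under 0 too, with a median of −1.05 and the 3 named above past the threshold. Their part in the values of the targets was not tested.

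**Figure D5:**
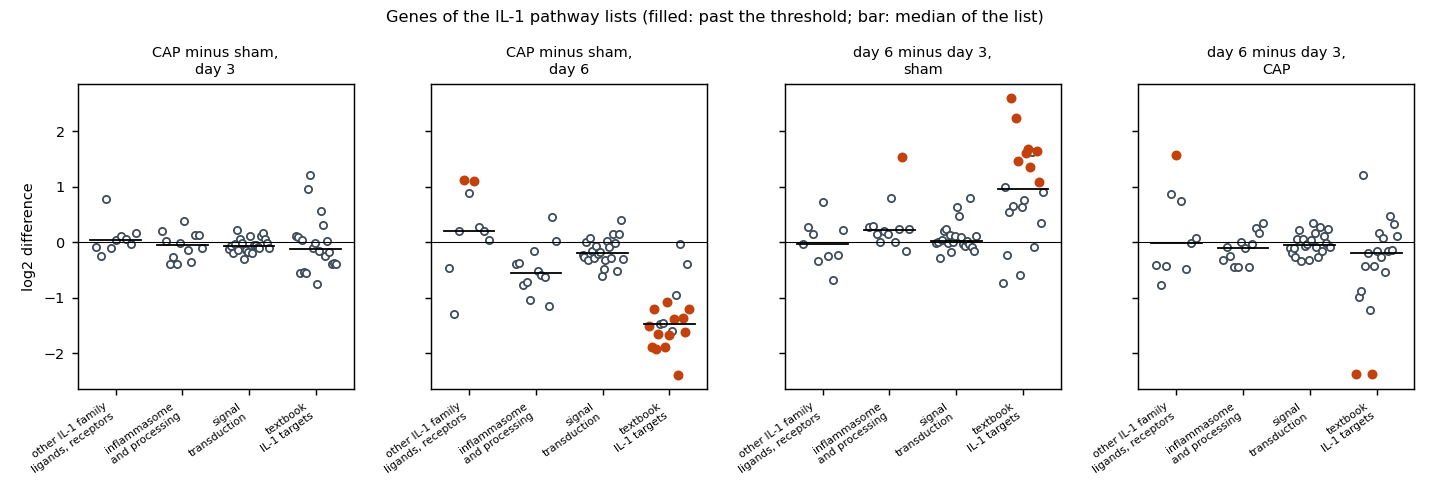
Log2 differences of each tested gene of the 4 IL-1 pathway lists (points, filled where past the threshold) in 4 comparisons, with the list's median as a bar. The textbook targets have a median of −1.47 in CAP against sham at day 6 and of 0.95 in day 6 against day 3 of sham wounds.

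From day 3 to day 6 in sham wounds, 2.13% of all genes tested rose past the threshold and 1.61% fell. Of the 63 pathway genes 9 rose and 0 fell. They were Nlrp3, which rose by 1.54 (adjusted p = 0.0749 in limma), and 8 targets of the 20, whose list had a median of 0.95 against 0.00 for all genes. Mmp3, a matrix-degrading enzyme, rose from 196.6 ± 27.2 to 507.7 ± 118.1 TPM (SD, n = 3), by 1.35 (SE 0.19, adjusted p = 0.0222 in limma). Mmp13, another such enzyme, rose by 1.68 (adjusted p = 0.0505 in limma). The neutrophil attractants Cxcl2 and Cxcl3 rose by 2.24 and 1.46, Ptgs2, an enzyme of prostaglandin synthesis, by 1.65, Lcn2, an antimicrobial protein, by 1.60, and the acute phase gene Saa3 by 1.08. Under CAP, 3 of 62 passed, beside 1.27% of all genes tested as higher and 1.52% as lower. Il1f6 rose by 1.57 (adjusted p = 0.236 in limma), and Cxcl5 and Ccl2 each fell by 2.37. The targets had a median of −0.19 under CAP.

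The CAP effects of the days differed in 9 of 63 pathway genes, 1 in the higher and 8 in the lower direction. Over all genes tested these shares were 2.18% and 2.73%. Il1f5 was the higher one (1.22, SE 0.37). The 8 others were targets: Ccl2 (−1.64), Icam1 (−1.07), Ccl20 (−1.98), Mmp3 (−1.28), Mmp13 (−1.95), Cxcl3 (−2.67), Csf2 (−2.55) and Cxcl5 (−1.79). Each of the 9 had an adjusted p of 0.428 in limma. Csf2 was low, with a mean of 0.11 TPM in CAP day 6 wounds and 1.21 TPM in sham day 6 wounds. All 20 targets were under 0 in that comparison, with a median of −1.33 against −0.06 for all genes. With both libraries that stood apart left out, 11 pathway genes passed in place of 9.

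The genes whose levels were most like those of each of the 10 were ranked by Pearson r of log2(TPM + 0.1) over the 12 libraries, among the 16169 genes whose mean over all libraries reached 1 TPM. The 12 points share 4 groups, so the r of the deviations from the group means is given beside it, and both are descriptions without a test. Il1b was most like Nlrp3 (0.963, and 0.960 within groups), Hdc (0.946 and 0.964) and Osm (0.943 and 0.939). Il1r1 was most like Slc39a14 (0.993 and 0.993), Ptx3 (0.970 and 0.944) and Fas (0.968 and 0.959). Il33 was followed by Ankrd50 (0.983 and 0.955), Fam167a (0.961 and 0.923) and S100a8 (0.959 and 0.954), and Il18 by Glcci1 (0.972 and 0.945), Sgpp1 (0.961 and 0.930) and Nrd1 (0.961 and 0.931). For these 4 genes the likeness within groups was as high as over all libraries, or nearly so. For Il1rl1 it was not: Aldoa (0.946 and 0.655), Sprr3 (0.945 and 0.598) and Ywhag (0.939 and 0.567) followed it mainly across groups.

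For the other genes the leading r was lower. Il1a was most like Gm28529 (0.881), Snora57 (0.875) and Homez (0.859), with 0.467 to 0.583 within groups. Il1rn was most like Igfbp3 (0.922), Gm12430 (0.886) and Mir5125 (0.869), with 0.758 to 0.818 within groups. Il1r2 was most like Men1 (0.901), Srrm2 (0.895) and Kdm6b (0.884), with 0.893 to 0.922 within groups. Il1rap was most like Ipo8 (0.939), Itgal (0.930) and Pilrb2 (0.930), with 0.897 to 0.97 within groups. Il18bp was most like Exoc3 (0.937), Pcdhga3 (0.888) and Stx5a (0.887), with 0.799 to 0.890 within groups. Among the 10 genes themselves, the highest r were those of Il1a with Il1rn (0.847, and 0.629 within groups), Il1b with Il1rap (0.832 and 0.848) and Il1b with Il1r1 (0.831 and 0.791). The lowest were those of Il18 with Il33 (−0.71, and −0.34 within groups) and with Il1r1 (−0.70 and −0.83).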

How the data were processed

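RNA of 12 wound libraries was sequenced. The authors obtained expression values with StringTie and deposited them as TPM, 1 table per library. The labels name bcl2fastq, Trimmomatic 0.36 and the build mm10, and the sources used here name no aligner and no strand setting. The authors' later test with DESeq is not part of the tables, which hold 0 other columns of per-sample values.

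Treatment and day in the labels set the groups. Differences were taken between values of log2(TPM + 0.1), and they understate the change of low genes. The filter kept genes whose mean reached 0.3 TPM in both groups, or in at least 1 of the 4 groups for the comparison of the CAP effects. They were fitted by limma 3.58.1 (R 4.3.3) with a trend on mean expression, on the groups compared only, and p values were adjusted over all genes tested by the Benjamini-Hochberg method. The threshold, as in the study, asked for an unadjusted p below 0.05 together with a 2-fold difference. All p values are 2-sided. The exact permutation test over the 20 divisions of 6 libraries into 3 and 3 cannot give less than 0.1. Counting error is not known from TPM, and precision rests on the spread of 3 libraries per group.

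The 10 genes and the gene lists were chosen with earlier results of these data known. The rule for names took all 10 genes, the pathway genes past the threshold (the 8 with the smallest p where more passed), the IL-36 genes, Casp1, Nlrp3 and Il6, and the 3 genes most like each of the 10. Markers were named with their list, and Numa1 and Bco2 for their overlap. The alternatives were a pseudocount of 1 TPM, no filter, a fit over all 4 groups at once, a replicate block, median-ratio scaling and leaving out each library in turn. Leaving out both libraries that stood apart was added after seeing the data. The fit was tested on simulated data. Promoter stretches came from RefSeq (GRCm38.p6), where all 10 genes matched. Software was Python 3.11.15, numpy 2.4.6, pandas 2.3.3 and matplotlib 3.10.9.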

Additional observations from a re-analysis of the deposited data

Results flagged for a closer look

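The CAP effect on Il18 differed between the days: sham and CAP-treated wounds differed by −0.32 on the log2 scale at day 3 and by 1.09 at day 6, and the interaction of 1.41 was past the threshold (adjusted p = 0.428 in limma). Higher values under CAP were seen in 3 of 3 libraries of day 6 against all sham libraries of that day.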

How the results depend on the processing

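Other settings left most values in place. A pseudocount of 1 TPM, no filter, a joint fit, median-ratio scaling and the replicate block kept the sign of every one of the 10 genes in each comparison, and the count of these genes past the threshold, except that Il1b in sham wounds between the days was lost without the filter and in the joint fit (0 genes in place of 1 in both). The labels do not say whether replicate numbers pair the samples, and deviations of same-numbered libraries correlated at −0.107 to 0.2. Under the replicate block the counts were 0 at day 3, 1 at day 6, 1 for the days in sham wounds, 3 for the days under CAP and 1 for the difference of the CAP effects, the same numbers as without it, and 16 pathway genes in place of 15 at day 6. Only for CAP against sham at day 6 did each library deviate most like the one with its own number.

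Single libraries mattered more, with 3 per group. Leaving out each in turn gave 0 to 4 of the 10 genes past the threshold at day 6, 0 (without CAP replicate 2) and 4 (without CAP replicate 3) being the ends, 0 to 1 for the days in sham wounds, 1 to 3 for the days under CAP, and 1 to 3 for the difference of the CAP effects. Pathway genes ranged over 0 to 2 at day 3, 8 to 23 at day 6, 4 to 8 for the days under CAP and 6 to 18 for the difference of the effects. Values close to 0 turned in sign. At day 3 these were Il1b (−0.79 to 0.34), Il1rn (−0.026 to 0.093), Il1r1 (−0.45 to 0.071), Il33 (−0.28 to 0.085) and Il1rl1 (−0.21 to 0.033). At day 6 they were Il1a (−0.044 to 0.26), Il1rn (−0.10 to 0.27), Il1r2 (−0.39 to 0.049) and Il18bp (−0.57 to 0.080). Between the days they were Il1r2 (−0.13 to 0.30) and Il18bp (−0.21 to 0.10) in sham wounds, and Il1b (−0.37 to 1.09), Il1r1 (−0.36 to 0.18) and Il1r2 (−0.082 to 0.16) under CAP. For the difference of the CAP effects they were Il1rn (−0.12 to 0.25), Il1r2 (−0.25 to 0.19, and −0.079 with both libraries that stood apart left out) and Il1rap (−0.032 to 0.32). The cause was not tested. Over all genes, 268 higher and 429 lower were past the threshold at day 6 with all libraries, 140 and 171 without CAP replicate 2, and 458 and 1025 without CAP replicate 3.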
